A study of Drosophila melanogaster with 15 samples.

Results

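CG11414, TSG101, mib1, Ubr1 and CG40045 are 5 genes that act in attaching ubiquitin to proteins or in sorting ubiquitinated membrane proteins, out of 11984 genes named on the array. They were taken because the study lists them among its genes with altered transcript abundance after ethanol, so their differences between treatments had already been used in choosing them and are given here as a description, with no test. Each gene is read by 1 probe set, and all 5 passed the filter on dim probe sets. The RefSeq gene table places CG11414 on chromosome arm 2R, TSG101, mib1 and CG40045 on 3L, and Ubr1 on X.

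Transcripts of whole males of Drosophila melanogaster, aged 3 to 5 days, of the isogenic Canton-S B strain, were measured on 15 Affymetrix arrays. Control flies (5 arrays) were frozen without ethanol exposure. Flies of the 1st exposure (5 arrays) were frozen directly after passing once through the inebriometer, a column filled with ethanol vapor from which intoxicated flies fall. Flies of the 2nd exposure (5 arrays) recovered for 2 h on food and were then passed through it once more. All groups shared the strain, sex and age and carried no transgene, and each array held RNA from a separate pool of whole flies. The exposed flies were only those that left the column around the peak elution time, while control flies were not selected in this way, so ethanol, the passage through the column and that selection cannot be told apart. The peak came later in the 2nd exposure than in the 1st, so the 2 exposures also differed in time spent in the column. In comparisons of the 2nd with the 1st exposure this time cannot be told apart from the rest. Flies of the 2nd exposure were also frozen later than the controls, after the 2 h recovery. For them the time of sampling and the holding on food cannot be told apart from the exposures either. Because whole bodies were used, a change in the RNA per cell cannot be told apart from a change in the number of cells that hold it.

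Ubiquitin is a small protein that is joined to other proteins in steps: an E1 enzyme activates it, an E2 enzyme carries it, and an E3 ligase selects the protein that receives it. Some chains of ubiquitin send a protein to the proteasome for destruction, and ubiquitin on a membrane protein can send it by endocytosis into the multivesicular body and on to the lysosome. The ESCRT complexes carry out that last sorting step, and in signal-sending cells of the fly the uptake of ubiquitinated Notch ligands is what lets them activate Notch on a neighboring cell. CG40045 stands at the E2 step, CG11414, mib1 and Ubr1 at the E3 step, and TSG101 at the sorting step.

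The values are Signal, the linear intensity that Microarray Suite 5.0 computes for a probe set, scaled on each array. Median Signal of the arrays was 136 to 139 in controls, 130 to 133 in 1st-exposure flies and 139 to 142 in 2nd-exposure flies. Testis and accessory gland markers, 5 genes each, were bright on every array, with summed Signals of at least 42344 and 65643. Yolk protein transcripts, which females make, were high on array 5 of the 2nd exposure, although the study's methods describe all flies as males. Yp1 read 2521 there, 72.9 on array 4 of the 2nd exposure and at most 38.0 on the other 13 arrays. The summed Signal of the 5 ovary and yolk markers was 164 to 260.2 in controls, 153 to 184 in 1st-exposure flies and 140.4 to 5873 in 2nd-exposure flies. That highest sum came from the yolk genes, with Yp2 at 1669.5 and Yp3 at 1660.8 on array 5 of the 2nd exposure. The ovary genes Cp15 and Cp36 read 13 and 8.4 there, within their range on the other arrays. The summed Signal of 5 flight muscle genes varied widely within each treatment. It ran from 22386 to 40611 in controls, from 17105 to 40876 in 1st-exposure flies and from 21900 to 64393 in 2nd-exposure flies. Arrays 4 and 5 of the 2nd exposure had the highest sums. Not every gene varied so: the coefficient of variation of Mlp84B was 9.24% in controls, 6.41% in 1st-exposure flies and 3.49% in 2nd-exposure flies. The results of the 2nd exposure are also given without array 5 and without arrays 4 and 5 together, because of the yolk transcripts and these sums.

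CG11414 carries the fly synonym znf598. The probe set read for it is the one that both the platform annotation and the study's full list of changed probe sets give for CG11414, while a shorter list in the study pairs CG11414 with the probe set that these sources give for CG3106. Its mammalian counterpart ZNF598 is an E3 ligase that marks proteins of the small ribosomal subunit when ribosomes collide on a message. CG11414 Signal was 488, 443, 511, 449 and 529 on the control arrays, 818, 855, 829, 801 and 750 in 1st-exposure flies, and 900.2, 830, 862, 802 and 910 in 2nd-exposure flies. Every exposed array lay above every control array, the lowest exposed value of 750 standing well above the highest control value of 529, while the arrays of the 2 exposures were mixed. The means were 484 ± 37.3 in controls, 811 ± 38.9 in 1st-exposure flies and 861 ± 45.8 in 2nd-exposure flies (SD, n = 5 each). CG11414 had the largest log2 fold change of the 5 genes in both comparisons with controls, 0.75 (95% interval 0.61 to 0.88, a 1.68-fold level) in 1st-exposure flies and 0.83 (0.70 to 0.97, a 1.78-fold level) in 2nd-exposure flies. Between the exposures the log2 difference was 0.09 (-0.05 to 0.22, 2nd minus 1st).

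TSG101 encodes a subunit of ESCRT-I, which recognizes ubiquitinated cargo on endosomes. Its ubiquitin-binding domain resembles an E2 enzyme that lacks the catalytic cysteine, which puts TSG101 among the E2 variants by sequence. TSG101 Signal was 1731, 1779, 1950.4, 1730.3 and 2416 in controls, 2908, 2666, 2838, 2693 and 2593 in 1st-exposure flies, and 3121, 2777, 2598, 2565 and 2956 in 2nd-exposure flies. All 10 exposed arrays again lay above all 5 control arrays, but control array 5, at 2416, came close to the lowest exposed array, at 2565. The mean was 1921 ± 291 in controls, 2740 ± 129 in 1st-exposure flies and 2803 ± 237 in 2nd-exposure flies, so the controls were the most scattered group. The log2 fold change was 0.52 (0.33 to 0.72, a 1.44-fold level) in 1st-exposure flies and 0.55 (0.36 to 0.75, a 1.47-fold level) in 2nd-exposure flies, and it was 0.03 (-0.17 to 0.23) between the exposures. Without control array 5 the differences from controls became 0.61 in 1st-exposure flies and 0.64 in 2nd-exposure flies.

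**Figure D1:**
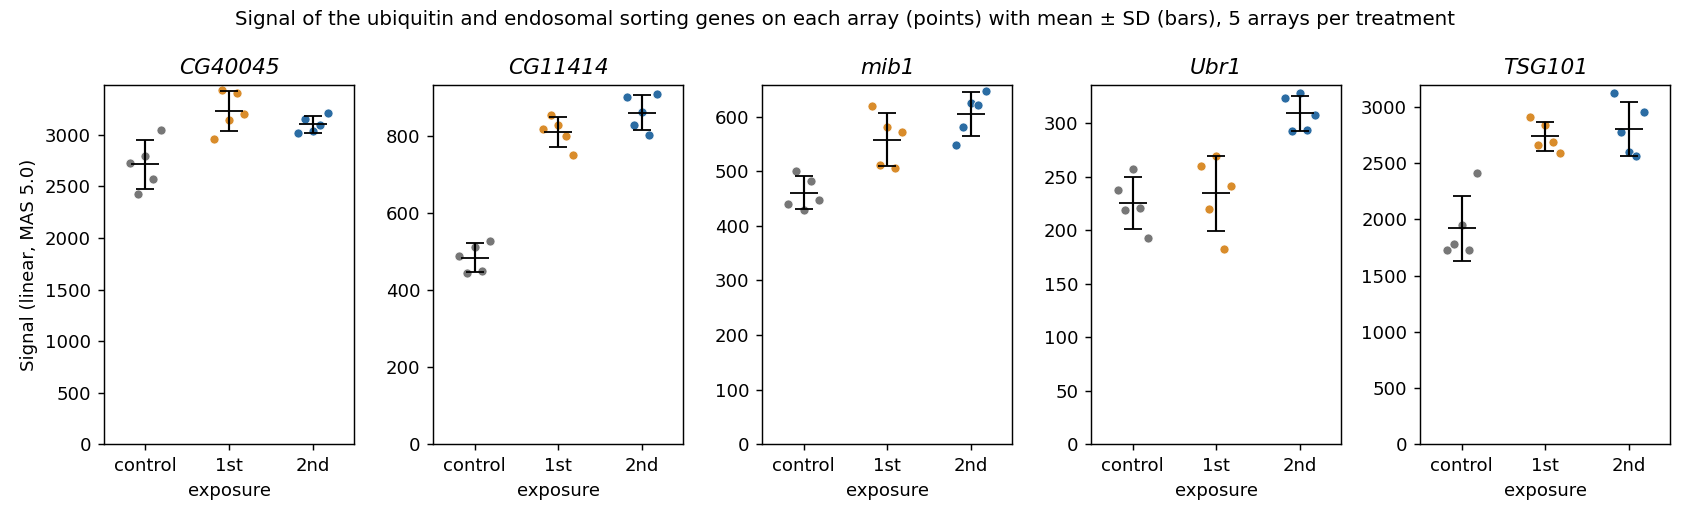
Signal (linear, MAS 5.0, each axis from 0) of CG40045, CG11414, mib1, Ubr1 and TSG101 on each of the 15 arrays, as points by treatment (control, 1st exposure, 2nd exposure), with the mean and SD of 5 arrays in black. CG11414, TSG101 and mib1 stand apart from controls after both exposures, mib1 only narrowly in 1st-exposure flies. Ubr1 stands apart in 2nd-exposure flies only, and control array 5 is the high control point of TSG101 and CG40045.

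mib1 (mind bomb 1) is a RING E3 ligase that ubiquitinates the Notch ligands Delta and Serrate and so promotes their endocytosis. mib1 Signal was 441, 501, 430, 482 and 447 in controls, 619, 512, 580.2, 505 and 572 in 1st-exposure flies, and 547, 581, 625, 622 and 647 in 2nd-exposure flies. The groups touched without overlapping: the highest control array read 501 and the lowest of the 1st exposure 505. Mean Signal was 460.1 ± 30.3 in controls, 557 ± 48.2 in 1st-exposure flies and 604 ± 39.8 in 2nd-exposure flies. The log2 fold change was 0.27 (0.12 to 0.43, a 1.21-fold level) in 1st-exposure flies and 0.39 (0.24 to 0.55, a 1.31-fold level) in 2nd-exposure flies. The 2 exposures differed by 0.12 (-0.04 to 0.27), and their arrays overlapped.

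Ubr1 encodes the fly counterpart of the yeast and mammalian E3 ligases of the N-degron pathway, which select proteins by their N-terminal residue. Ubr1 Signal was 238, 219, 257, 221 and 192 in controls, 259.9, 220, 269, 182 and 241 in 1st-exposure flies, and 324, 293, 328, 293 and 308 in 2nd-exposure flies. Controls and the 1st exposure covered nearly the same range, and all 5 arrays of the 2nd exposure lay above the other 10. Means were 225 ± 24.0 in controls, 234 ± 34.8 in 1st-exposure flies and 309 ± 16.5 in 2nd-exposure flies. Its log2 difference from controls was 0.05 (-0.17 to 0.27) in 1st-exposure flies and 0.46 (0.24 to 0.68, a 1.38-fold level) in 2nd-exposure flies. Ubr1 was also the only one of the 5 genes whose exposures did not overlap, with a log2 difference of 0.41 (0.19 to 0.63, a 1.33-fold level, 2nd over 1st).

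CG40045 carries the synonym Ube2G1. The mammalian UBE2G1 is an E2 enzyme that builds ubiquitin chains together with cullin ligases. CG40045 Signal was 2728, 2426, 2796, 2570.4 and 3050.0 in controls, 2960.2, 3433, 3143, 3404 and 3199 in 1st-exposure flies, and 3014, 3157, 3038, 3097 and 3213 in 2nd-exposure flies. Control array 5, at 3050.0, lay above 1 array of the 1st exposure and 2 arrays of the 2nd, so that CG40045 was the only one of the 5 genes to overlap with controls after both exposures. Its means were 2714 ± 236 in controls, 3228 ± 195 in 1st-exposure flies and 3104 ± 82.5 in 2nd-exposure flies. The log2 fold change was 0.25 (0.11 to 0.39, a 1.19-fold level) in 1st-exposure flies and 0.20 (0.06 to 0.34, a 1.15-fold level) in 2nd-exposure flies, and the 2nd minus the 1st was -0.05 (-0.19 to 0.08).

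**Figure D2:**
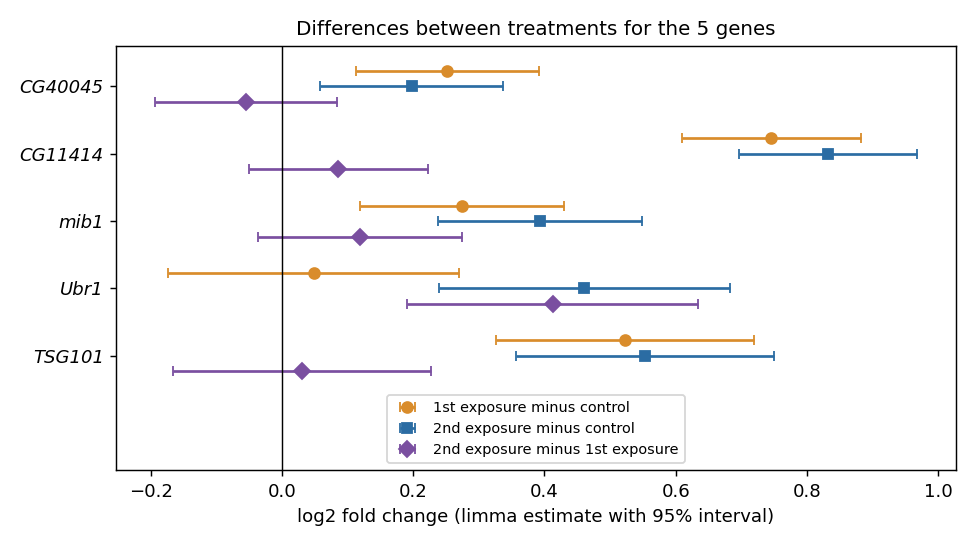
Log2 fold changes of the 5 genes with 95% intervals (limma, 5 arrays per treatment), for the 1st exposure minus control (circles), the 2nd exposure minus control (squares) and the 2nd minus the 1st exposure (diamonds). CG11414 has the values farthest from 0 against controls, at 0.75 and 0.83, and Ubr1 is the gene whose interval for the 2nd minus the 1st exposure does not include 0. The genes were chosen on these arrays, so the intervals describe precision and are no test.

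CG11414, TSG101 and mib1, 3 of the 5 genes, had exposed arrays entirely above the controls in 1st-exposure flies, where 1.19% of the 13809 probe sets tested were apart in that direction. In 2nd-exposure flies Ubr1 made this 4 of 5, where 3.40% of probe sets were apart and higher. Between the exposures it was Ubr1 alone, 1 of 5, where 3.39% were apart and higher. The median log2 fold change of the 5 genes was 0.27 in 1st-exposure flies and 0.46 in 2nd-exposure flies, against -0.02 and -0.00 over all probe sets tested. These genes were chosen from the same comparisons, and both comparisons share the control arrays.

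The 5 genes differed in how far replicate arrays scattered around their treatment mean. The residual SD on the log2 scale was 0.0882 for CG11414, 0.0910 for CG40045, 0.106 for mib1, 0.143 for TSG101 and 0.164 for Ubr1, all under the median of 0.182 over the probe sets tested. CG11414 had the widest difference from controls and the tightest replicates of the 5, and 7.72% of probe sets had a smaller residual SD. The study chose the genes by analysis of variance on these arrays, a choice that favors a small spread. The probe sets tested also include much dimmer ones, so these ranks are a description only. Ubr1 was the most scattered, mainly within the 1st exposure, where its coefficient of variation was 14.8%, against 10.6% in controls, and it was 5.34% in 2nd-exposure flies.

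The arrays high in one gene were not always high in the others. Over the 15 arrays, which include the differences between treatments used in choosing the genes, Pearson's r of log2 Signal ran from 0.08 (Ubr1 with CG40045) to 0.94 (CG11414 with TSG101). After each treatment mean was taken away, CG11414 and TSG101 still moved together over the 15 arrays (r = 0.73), as did CG11414 and CG40045 (r = 0.60) and TSG101 and CG40045 (r = 0.44). mib1 went the other way from these within treatments, with r of -0.63 to CG40045, -0.42 to CG11414 and -0.19 to TSG101, although it was higher with them in exposed flies. Ubr1 had r of 0.35 to mib1 and -0.51 to CG40045 within treatments. Control array 5 is an example of this split, being the highest control for CG11414, TSG101 and CG40045 and the lowest for Ubr1. All these values come from the same arrays and share their scaling, and they are descriptions of 15 arrays.

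**Figure D3:**
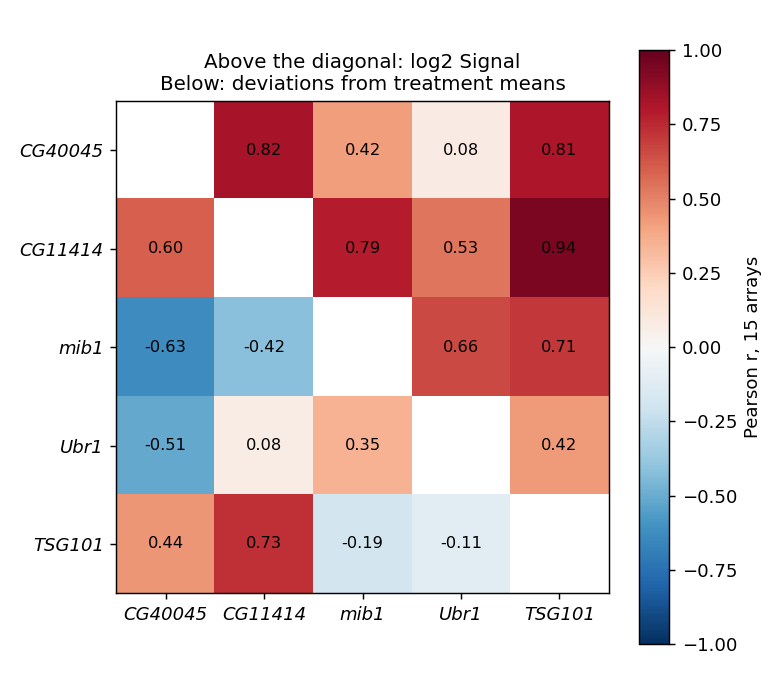
Pearson's r between the 5 genes over 15 arrays, for log2 Signal (above the diagonal) and for deviations from the treatment means (below it), with the value in each cell and color from -1 to 1. CG11414 and TSG101 have the highest r on both sides, at 0.94 and 0.73, and mib1 with CG40045 the lowest deviation r, at -0.63.

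Likeness was ranked over the 13808 other probe sets tested, leaving out those without a gene name, and it includes the differences between treatments. The named gene most like CG11414 in log2 Signal over the 15 arrays was TSG101 (r = 0.94), followed by Slc25A46a (0.93) and Shrm (0.92). TSG101 was most like Shrm (0.95), CG11414 (0.94) and atlas (0.92). CG40045 also had Shrm, a regulator of the actin cytoskeleton, as its nearest gene (0.88), then Clamp (0.85) and RpL24-like (0.85), so the same gene stood near 3 of the 5. Shrm averaged 143 ± 55.8 in controls, 364 ± 29.7 in 1st-exposure flies and 382 ± 120 in 2nd-exposure flies, and control array 5 was its highest control as well, at 237. mib1 and Ubr1 had other neighbors. mib1 was most like Drat (0.90), AOX1, an aldehyde oxidase (0.89), and Pino (0.87), and Ubr1 was most like FASN2, a fatty acid synthase (0.93), pippin (0.88) and CG4281 (0.87). FASN2 had the step seen in Ubr1, with 2719 ± 187 in controls, 2799 ± 249.6 in 1st-exposure flies and 3490.4 ± 122 in 2nd-exposure flies. Within treatments the r was 0.86 between TSG101 and atlas, 0.77 between Ubr1 and FASN2, 0.75 between TSG101 and Shrm, 0.52 between mib1 and Drat, and 0.38 between CG11414 and Slc25A46a.

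The differences of the 5 genes kept their direction when the arrays that stood apart were left out. Without array 5 of the 2nd exposure, the log2 fold changes of the 2nd exposure over controls were 0.81 for CG11414, 0.53 for TSG101, 0.37 for mib1, 0.46 for Ubr1 and 0.19 for CG40045. Without arrays 4 and 5, they were 0.84 for CG11414, 0.57 for TSG101, 0.35 for mib1, 0.49 for Ubr1 and 0.18 for CG40045. With the summed flight muscle Signal as a covariate they were 0.86, 0.60, 0.38, 0.51 and 0.20 in the same order of genes. The r of each gene's deviations with those of the flight muscle sum was -0.42 for CG11414, -0.47 for TSG101, 0.20 for mib1, -0.46 for Ubr1 and 0.03 for CG40045 over 15 arrays, where the median size of r over all probe sets tested was 0.38.

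The differences of the other ubiquitin and sorting genes centered near 0. In 9 lists of this machinery, 133 other genes had a probe set that the platform annotation gives to that gene alone, and 131 of these were tested. Further list genes had no such probe set and were not analysed, among them eff, Diap1, park, hyd, Vps37A, Rab5 and Rab7. They were not looked up in the study's list of changed probe sets, as mib1 and CG40045 were. None of the 131 had a limma adjusted p under 0.05 (Benjamini-Hochberg over all probe sets) in 1st-exposure flies, where 0.362% of all probe sets passed. Analysis of variance on linear Signal also called 0. At an unadjusted limma p under 0.05, 7 list genes were higher and 4 lower in 1st-exposure flies than in controls. In that comparison 1450 of all 13809 probe sets reached that level in either direction. In 2nd-exposure flies 3 of 131 rose over controls and 0 fell, that is 2.29%, where 3.63% of all probe sets passed. With all arrays set to equal medians, 2 were higher and 1 lower. At an unadjusted limma p under 0.05, 15 list genes were higher and 4 lower in 2nd-exposure flies than in controls. Of all 13809 probe sets, 2270 reached that level in either direction. The median log2 fold change over the 131 genes was -0.01 in 1st-exposure flies and 0.02 in 2nd-exposure flies. The lists and the 5 genes were not compared by a test, since the 5 were chosen for their change.

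The 3 genes that rose in 2nd-exposure flies were all E3 ligases, of 33 in that list. goliath (gol), a membrane-bound RING ligase, read 337, 399.6, 307, 269.7 and 258 in 2nd-exposure flies, against 212, 153, 192, 211 and 248 in controls, a log2 fold change of 0.63 (SE 0.15, adjusted p = 0.0319). All 5 exposed arrays lay above the controls, the closest pair being 258 and 248. gol has 2 probe sets, and with both averaged the log2 fold change was 0.39 (adjusted p = 0.0824). dnr1, a RING ligase that restrains the caspase Dronc and immune signaling, read 677, 655, 509, 664 and 638 in 2nd-exposure flies, against 482, 444, 437, 380.3 and 487 in controls (0.49, SE 0.10, adjusted p = 0.0148). Its lowest exposed array still lay above the highest control. POSH, a scaffold ligase of JNK signaling, averaged 237 ± 26.8 in 2nd-exposure flies and 187 ± 11.5 in controls (0.34, SE 0.09, adjusted p = 0.0470). gol and dnr1 are also on the study's list of changed genes. The count of 3 was 1 without control array 2, 3 or 4 or without array 3 of the 2nd exposure, 5 without control array 5, and 1 without arrays 4 and 5 of the 2nd exposure. The call of gol was lost without control array 1, 2, 3 or 4 or array 1, 2 or 3 of the 2nd exposure, and its adjusted p ran from 0.00113 to 0.0824 over all alternatives. That of POSH was lost without any single array other than arrays 1 and 5 of the 1st exposure and array 1 of the 2nd (0.0304 to 0.232). That of dnr1 was kept without each single array and lost when arrays 4 and 5 of the 2nd exposure were left out together (0.00384 to 0.102).

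Between the exposures 2 list genes rose and 1 fell, that is 2.29% of 131, where 1.76% of all probe sets passed. With all arrays set to equal medians the balance turned, with 1 list gene higher and 3 lower, and after quantile normalization 1 was higher and 0 lower. At an unadjusted limma p under 0.05, 16 list genes were higher and 4 lower, where 2155 of all 13809 probe sets reached that level in either direction. gol was higher in 2nd-exposure flies, at 314 ± 57.0, than in 1st-exposure flies, at 191 ± 31.1 (log2 fold change 0.72, SE 0.15, adjusted p = 0.0276), and with its 2 probe sets averaged the difference was 0.43 (adjusted p = 0.0803). The E2 enzyme CG7656 rose to 501 ± 37.9 in 2nd-exposure flies, against 409 ± 20.04 in 1st-exposure flies (0.29, SE 0.07, adjusted p = 0.0412). Its control level was 478 ± 33.6, so that the 1st-exposure flies were the low group. With equal array medians the difference of CG7656 was 0.19 (adjusted p = 0.110). The E2 enzyme CG7220 was the one that fell, to 2137 ± 122 in 2nd-exposure flies against 2509 ± 66.1 in 1st-exposure flies (-0.23, SE 0.05, adjusted p = 0.0329). These calls were close to the threshold: the count was 0 without array 1, 2, 4 or 5 of the 1st exposure or array 2 or 3 of the 2nd, 1 without array 3 of the 1st or array 1 or 5 of the 2nd, and 1 without arrays 4 and 5 of the 2nd. The call of gol was lost without array 1, 2, 4 or 5 of the 1st exposure or array 1, 2 or 3 of the 2nd (adjusted p 0.000971 to 0.0803 over all alternatives). That of CG7656 was lost without any single array other than control arrays 2, 4 and 5 (0.0231 to 0.120). That of CG7220 was lost without any array of the 1st exposure or without array 2, 3 or 5 of the 2nd (0.00417 to 0.0851).

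The nearest partners of the 5 genes gave no call against controls. Of 18 ESCRT and multivesicular body genes, 0 passed in any of the 3 comparisons. At an unadjusted limma p under 0.05 against controls, 3 were higher and 0 lower in 1st-exposure flies, and 4 higher and 1 lower in 2nd-exposure flies. Of all 13809 probe sets, 1450 and 2270 reached that level in either direction. The lowest unadjusted p was that of Stam in 1st-exposure flies (log2 fold change 0.26, adjusted p = 0.170) and of ALiX in 2nd-exposure flies (0.23, adjusted p = 0.0693). The 1 gene that was lower in 2nd-exposure flies was Vps25 (-0.13, adjusted p = 0.212). Vps28, which sits beside TSG101 in ESCRT-I, averaged 2131 ± 88.5 in controls, 2168 ± 175 in 1st-exposure flies and 2077 ± 145 in 2nd-exposure flies. The interval of its difference from controls was -0.12 to 0.17 in 1st-exposure flies and -0.18 to 0.10 in 2nd-exposure flies. Vps37B, another ESCRT-I subunit, averaged 747 ± 45.8 in controls, 689 ± 48.6 in 1st-exposure flies and 732 ± 49.0 in 2nd-exposure flies. Hrs, which hands ubiquitinated cargo to ESCRT-I, averaged 515 ± 56.5 in controls, 506 ± 18.5 in 1st-exposure flies and 604 ± 50.3 in 2nd-exposure flies (0.23, SE 0.08, adjusted p = 0.123 over controls).

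For the E3 step, mib2, the relative of mib1, averaged 2180 ± 120 in controls, 2262 ± 227 in 1st-exposure flies and 2212 ± 232 in 2nd-exposure flies. neur, which like mib1 acts on Notch ligands, was dim and scattered, at 85 ± 22.6 in controls, 104 ± 19.1 in 1st-exposure flies and 104 ± 7.04 in 2nd-exposure flies (0.34, SE 0.18, adjusted p = 0.367 for the 2nd over controls). None of 9 Notch pathway and ligand endocytosis genes passed in any comparison, and none of them reached an unadjusted p under 0.05. Of the UBR box genes, Ubr3 averaged 310.3 ± 36.5 in controls, 292 ± 40.3 in 1st-exposure flies and 341 ± 21.6 in 2nd-exposure flies, and poe averaged 2313 ± 141, 2292 ± 152 and 2178 ± 215 in that order of treatments. Ubr3 thus had its highest mean in 2nd-exposure flies, as Ubr1 did, but its log2 difference from controls was 0.14 (SE 0.10, adjusted p = 0.543). Vps37B, mib2, Ubr3 and poe were named as relatives of the 5 genes after their values had been seen. Stam, ALiX and Vps25 were also named after their values had been seen.

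Ubiquitin itself and the other steps gave no called gene after either exposure against controls. Ubi-p63E, a polyubiquitin gene, averaged 12262 ± 917 in controls, 11929 ± 1167 in 1st-exposure flies and 12519 ± 856 in 2nd-exposure flies. The 20 E2 genes had a median log2 fold change of -0.00 in 1st-exposure flies and -0.05 in 2nd-exposure flies. The 8 genes of the pathway that clears stalled ribosomes, in which the mammalian counterpart of CG11414 acts, had medians of 0.04 in 1st-exposure flies and 0.07 in 2nd-exposure flies. The 13 cullin and SCF genes had medians of -0.05 and 0.01 and the 23 deubiquitinases 0.00 and 0.03. Uba1, Dl, Ser and N had no probe set that the platform annotation names and were not analysed here.

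**Figure D4:**
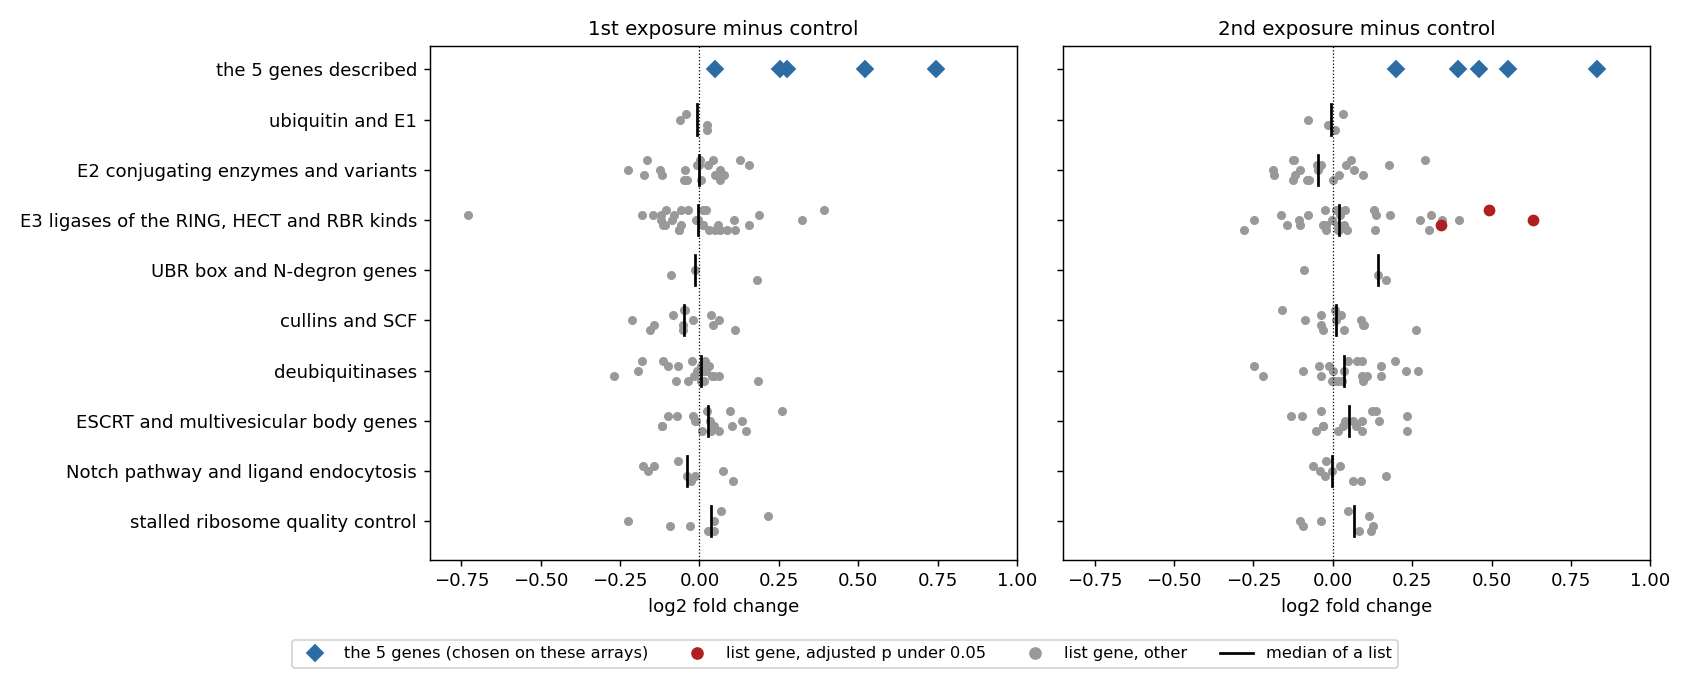
Log2 fold change in 1st-exposure flies (left) and the 2nd exposure (right), each minus control, of the 5 genes (diamonds, chosen on these arrays) and of 131 other genes of the ubiquitin and sorting machinery in 9 lists (points, red where the adjusted p is under 0.05, with a bar at the list's median). The list medians lie within 0.15 of 0, and the 3 red points in 2nd-exposure flies are E3 ligases.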

How the data were processed

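Signal intensity per probe set was computed and scaled array by array in Microarray Suite 5.0 by the authors; the deposited table holds linear intensity values for 18952 probe sets of 15 arrays; no batch or scan date is given in the sources used here. After 183 control probe sets were left out, the 13809 of 18769 with a mean Signal of at least 20 entered limma 3.58.1 (R 4.3.3) as log2 Signal (1 mean per treatment, 3 contrasts, Benjamini-Hochberg adjustment at 0.05), a method tested on simulated data first. Of the 18769 probe sets, 13647 had 1 symbol in the platform annotation, 402 several and 4720 none; mib1 and CG40045 were named through the study's own list of probe sets. A list gene with several probe sets was read from the brightest. The number of arrays limits the precision, and p-values measure the spread between pools. Genes named are the 5, the 3 genes most like each of them, and list genes past the threshold (at most 10 per contrast). A fixed set of partners (Uba1, Ubi-p63E, Hrs, Vps28, neur, Dl, Ser and N) is also named. Vps37B, Stam, ALiX, Vps25, mib2, Ubr3 and poe were added after their values had been seen. The 5 genes and the lists were chosen with earlier results of these data known. Alternatives were other scalings, filters and error models, a replicate block, and leaving out each array. RefSeq gene names are of Release 6; no coordinates are given, since the array files name no build.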

Additional observations from a re-analysis of the deposited data

Results flagged for a closer look

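The E3 ligase dnr1 read 509 on array 3 of the 2nd exposure, below the other 4 arrays of that treatment, which read 638 to 677. On the log2 scale the gap to the nearest array was 0.792 of the whole range, over the critical value of 0.71 for 5 arrays. Among the 5 genes and the list genes named for a call, 10 genes in all, this was 1 of 30 groups of 5 arrays, and chance gives about 1 in 20. Without that array the log2 fold change of dnr1 over controls was 0.57, against 0.49 with it.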

How the results depend on the processing

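The log2 fold changes of the 5 genes over controls kept their sign under every other setting that gives them a value and with each of the 15 arrays left out in turn, except Ubr1 after the 1st exposure, whose range with 1 array left out was -0.01 to 0.14. Setting all arrays to equal medians moved the median of all probe sets by -0.10 for the 2nd minus the 1st exposure. CG11414 then read -0.014 and CG40045 -0.15 for that difference, in place of 0.09 and -0.05, and TSG101 -0.07 in place of 0.03. For the same difference Ubr1 read 0.31 in place of 0.41, and mib1 0.018 in place of 0.12. Averaging the probe sets of a gene gave no other value for the 5 genes, which have 1 each. The count of list genes called for the 2nd exposure over controls, 3, was 6 with analysis of variance on linear Signal, 6 with an intensity trend in the error model, 5 with array weights, 5 with probe sets averaged, 1 with no filter, and 1 to 5 with 1 array left out. For the 2nd minus the 1st exposure the count of 3 was 5 on linear Signal, 1 after quantile normalization, 0 with no filter, and 0 to 4 with 1 array left out. Of 2 settings chosen after seeing the data, the flight muscle covariate gave 5 for the 2nd exposure over controls, and leaving out arrays 4 and 5 of the 2nd exposure gave 1 there and 1 for the 2nd minus the 1st. The count after the 1st exposure was 0 throughout. The causes were not tested.

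The methods describe each replicate as drawn from the same starting flies, but the labels do not say that a number marks them. Same-numbered arrays of different treatments had deviations with r of -0.07 to 0.10 (15 pairs), and 3 of 15 arrays were nearest to their own number. With the replicate block, 0 list genes were called for the 2nd minus the 1st exposure, in place of 3, and 2 for the 2nd exposure over controls, also in place of 3. The gene lost over controls was gol (adjusted p = 0.0815), which was also lost for the 2nd minus the 1st (0.0772).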
